A study of Mus musculus with 2 samples.

Results

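The neurexins, neuroligins and neurexophilins measured here were 8 genes of the 22145 gene symbols on the array: Nrxn2, Nrxn3, Nlgn1, Nlgn2, Nlgn3, Nxph1, Nxph3 and Nxph4. They were taken by symbol, as every non-control probe that carries one of these names, which gave 19 probes with 1 spot each. Other genes of these families were not analysed here. Total RNA came from ICR mouse hippocampal cells, taken at embryonic day 16.5 and grown as dissociated cultures for 12 days in vitro in medium with 5.5% serum. Both cultures received 5 µM Ara-C, which kills dividing glia, 2 days after plating. The treated culture was kept in tetrodotoxin (TTX), a toxin that blocks voltage-gated sodium channels and so silences action potentials, for its final 2 days. The dose of TTX is 2 µM in the series text and 2 mM in the label of the sample, and the treatment text does not separate the samples, so groups follow the sample titles. There was 1 array per group, hybridized with Cy3-labelled RNA on the same slide, and therefore no difference below has a replicate check or a p-value.

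Neurexins are presynaptic cell-surface proteins, and each gene makes long alpha and short beta forms that are spliced in many ways. Neuroligins sit on the postsynaptic side and bind neurexins across the cleft, with Nlgn1 known from excitatory synapses, Nlgn2 from inhibitory synapses and Nlgn3 from both. Neurexophilins are secreted, peptide-like glycoproteins that bind the extracellular part of alpha-neurexins.

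In the TTX culture the signals of Nxph3 and Nxph4 were 4.83-fold and 3.27-fold higher than in the control culture, while the third neurexophilin, Nxph1, was 1.31-fold higher. The neuroligins and Nrxn2 differed by at most 0.28 on the log2 scale, except at a dim second probe of Nlgn1. Nrxn3 was lower at all of its 6 probes, with differences from -0.58 to -0.10, although its dim most 5′ probe was just above 0 (0.0073) with 75th percentile scaling and also turned sign with no scaling. In RNA from a whole culture, fewer cells of a type and less RNA per cell cannot be told apart.

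Sequences are shown for some of the probes on which these statements turn, 5′ to 3′, with mm9 positions from the array annotation. The exon or untranslated region under each probe is not annotated in the files used here. The Nxph1 probe (chr6:9197454-9197513, plus strand) and the dimmer Nxph4 probe (chr10:126963605-126963664, minus strand) are shown because these paralogues differed in response. Capitals mark the bases that match when the end of the first is laid, without gaps, over the start of the second. The position of the overlap was picked, among those tried, for the largest excess of matches over mismatches.
Nxph1: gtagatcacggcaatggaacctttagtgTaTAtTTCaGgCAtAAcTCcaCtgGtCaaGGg
Nxph4: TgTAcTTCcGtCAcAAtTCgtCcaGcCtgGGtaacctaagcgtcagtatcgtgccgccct
In that overlap of 32 bases, 18 were identical (56.2%), so the probes read different sequences. The identity that unrelated probes reach in this way was not computed, so the figure does not measure relatedness.

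For Nrxn3, the pair of interior probes is shown because their differences were smaller than those at the 3′ end of the gene. They lie at chr12:91407414-91407473 and chr12:91522030-91522089 on the plus strand, and each has 2 forward frames without a stop codon. The brightest Nrxn3 probe, at the far 3′ end, also has 2 such frames, so that count does not place a probe in coding sequence.
Nrxn3 probe at 1374.1 kb: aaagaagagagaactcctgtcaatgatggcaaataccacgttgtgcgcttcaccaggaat
Nrxn3 probe at 1488.8 kb: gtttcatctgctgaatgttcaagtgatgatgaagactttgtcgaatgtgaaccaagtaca
Distances are counted along the gene from its most 5′ probe. For Nrxn2, the start of the second probe (chr19:6532125-6532184, plus strand) is shown because it holds the end of a reading frame, with the stop codon in capitals.
Nrxn2: aaagacaaagagtattacgtcTGA
The cytoplasmic tail of neurexins ends in a short motif that binds PDZ domains, and these codons precede the stop.

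Well above background were 54.2% of the control array's spots and 52.2% of those hybridized with TTX RNA, and both arrays measured 14015 genes in common. All 19 probes of the 8 genes passed that background call in both cultures, and none was saturated or marked as an outlier spot. The values below are quantile-normalized signals in linear units, and differences are log2 of TTX over control. Since each probe had 1 spot, the error given with a difference is the SD of spot-level differences among replicated probes of the same signal quintile, from 0.31 in the dimmest quintile to 0.06 in the brightest. This SD covers error within the arrays only and leaves out culture, RNA and labelling. A second error combines those that the scanner software gives for the 2 signals. It was 0.20 at the brightest probes of Nrxn2, Nlgn2 and Nlgn3, where the spot SD was 0.06. At the dimmer Nxph4 probe it was 0.26. Of 14015 genes, 293 (2.09%) were at least 2-fold higher in TTX and 476 (3.4%) at least 2-fold lower, the size rule used throughout. Of the 8 genes, 2 were at least 2-fold higher and 0 at least 2-fold lower. Their median was 0.18, and 0.10 without Nxph3 and Nxph4, against 0.01 over all measured genes. With scaling on the spike-in controls, which put the median of all genes at -0.09, the median of the 8 genes was 0.02.

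**Figure D1:**
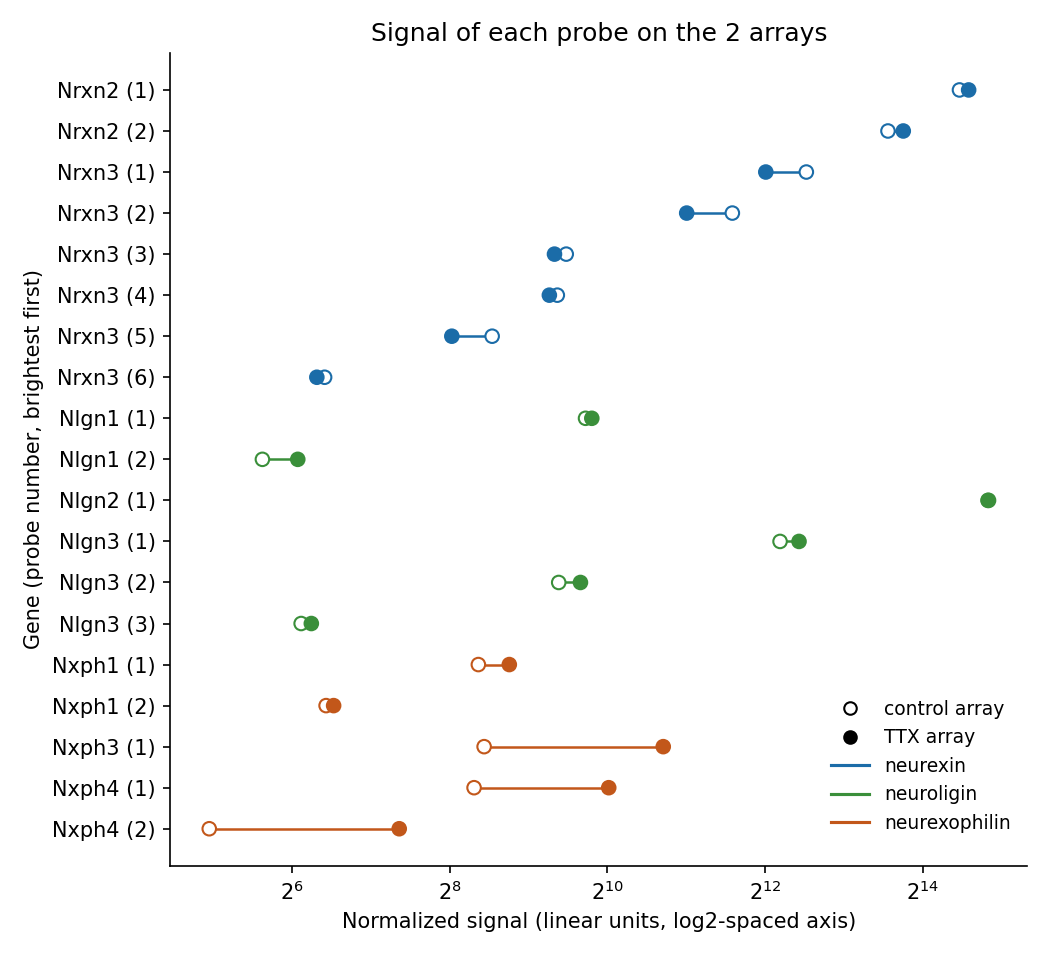
Normalized signal of each of the 19 probes on the control array (open circles) and the TTX array (filled circles), on a log2-spaced axis, with 1 array per group and no error bar. Signals of different probes are not comparable with each other; within a row, the distance is the difference, longest for Nxph3 and the Nxph4 probes.

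Nxph3 encodes a neurexophilin known from restricted groups of neurons. Its single probe (chr11:95371173-95371232, minus strand) had a signal of 347 in control and 1675 in TTX. The log2 difference was 2.27 (spot SD 0.08), and the signals before normalization were 347 and 1612. Nxph3 had rank 23 from the highest of 14015 genes, and in its own quintile of signals 2 of 3628 genes were higher. With one probe, there is no second reading of Nxph3 on the array. That probe holds the letters AATAAA, the usual polyadenylation signal, from base 50 of its 60, and the reverse complement TTTATT was not found in it. AATAAA occurs in 10.1% of all probes on the array and TTTATT in 3.74%, so the match alone does not place this probe at a polyadenylation site.

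Nxph4, another member of the family, was read by 2 probes. The brighter probe (chr10:126962668-126962727, minus strand) had signals of 318 on control and 1037 on TTX, a log2 difference of 1.71 (spot SD 0.10). The dimmer probe, printed above, had signals of 31.0 and 164, a difference of 2.41 (spot SD 0.18). Both probes were thus higher on the TTX array, by amounts that differ more than the spot SD. With normexp background correction, which adds an offset of 50 to every signal, the dimmer probe was at 1.33 and the brighter at 1.56. At its brighter probe Nxph4 had rank 81 of 14015, and 14 of the 2855 genes in its signal quintile were higher.

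Nxph1, the founding neurexophilin, known from inhibitory interneurons of the hippocampus, gave small differences. The probe printed above had signals of 330 and 433, a difference of 0.39 (spot SD 0.10). The other probe (chr6:8900188-8900247, plus strand) was dim, with signals of 86.5 and 92.4 and a difference of 0.10 (spot SD 0.18). Neither probe reached 2-fold, and 14.8% of all measured genes stood higher than Nxph1.

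The position on the array was checked because the share of probes at least 2-fold higher varied along the array rows, from 1.38% to 3.44% in blocks of 48 rows. The spots of Nxph3 and Nxph4 lay in blocks where that share was 1.46%, 1.81% and 1.38%. With the median of its block removed, Nxph3 was at 2.27 and Nxph4 at 1.68. Block medians ran only from 0.0017 to 0.0572, so removing them could change little. A block median also does not show an error at a single spot, and the part of array position was not tested.

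**Figure D2:**
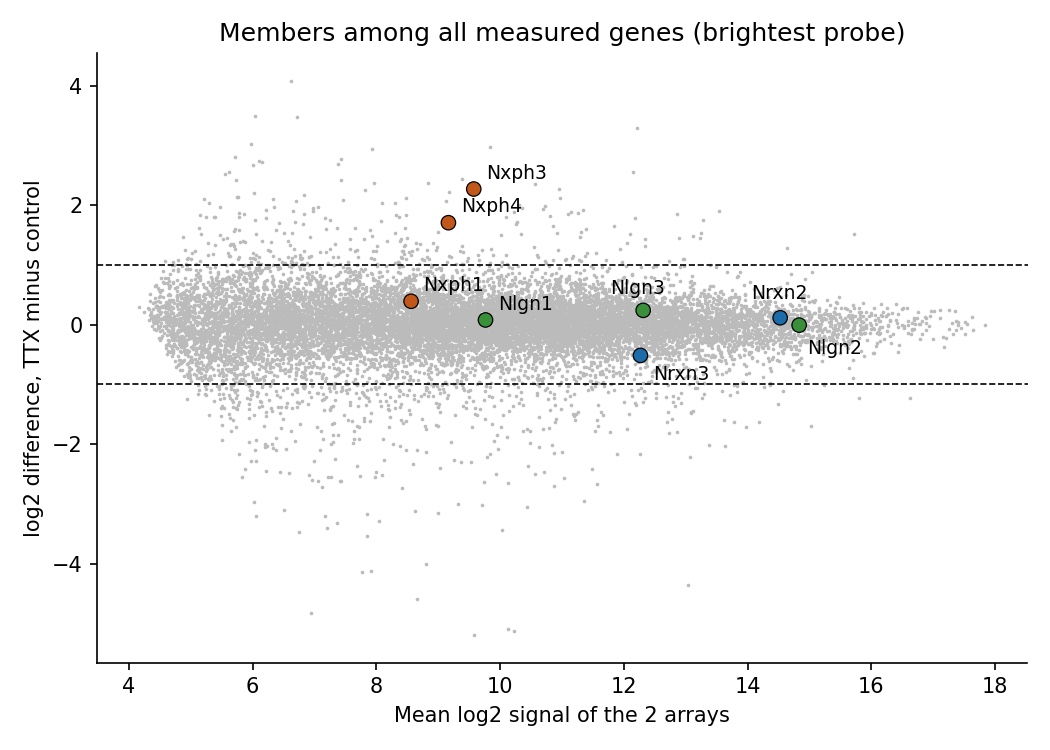
Log2 difference (TTX minus control) against mean log2 signal for 14015 measured genes (grey), each at its brightest probe, with the 8 genes in colour and dashed lines at 2-fold. Nxph3 and Nxph4 lie above the upper line at 2.27 and 1.71, Nrxn3 lies at -0.51 and the other 5 genes lie between -0.01 and 0.39.

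Among the receptors, Nrxn3 was read by 6 probes, more than any other of the 8 genes. Its brightest probe, at the far 3′ end (chr12:91573315-91573374, plus strand; AATAAA from base 41), had signals of 5893 on control and 4127 on TTX, a difference of -0.51 (spot SD 0.06). The neighbouring probe (chr12:91571382-91571441) gave 3075 and 2059, a difference of -0.58 (spot SD 0.08). These 2 probes lie within 2 kb of each other and gave like values, which are lower on the TTX array by about 1.43-fold and 1.49-fold.

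The interior probes of Nrxn3 gave smaller differences. The probe at 1488.8 kb had signals of 714 and 644, a difference of -0.15 (spot SD 0.10). The probe at 1374.1 kb had signals of 660 and 616, a difference of -0.10 (spot SD 0.10). Both are annotated to transcript variant 2, whereas the probes at the 3′ end are annotated to variant 1. The array annotation lists at most 4 accessions for a probe, so these names do not say which other variants a probe reads.

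Further 5′, a probe annotated to variant 3 (chr12:91052021-91052080) was at 372 on control and 261 on TTX, a difference of -0.51 (spot SD 0.10). The most 5′ probe (chr12:90033278-90033337), annotated to variant 1, was dim, at 85.4 and 79.7, with a difference of -0.10 (spot SD 0.18); before normalization its signals were nearly equal, at 82.5 and 82.6. Along the gene the values therefore did not run in one order, with larger differences at 1018.7 kb and at the 3′ end and smaller ones between. By the scanner software, the errors of these differences ran from 0.20 to 0.22, larger than the spot SDs. Whether the probes differ from each other was not tested. The range over the 6 probes was 0.48. At its brightest probe 89.3% of all measured genes were higher than Nrxn3, and the mean over its probes was -0.33.

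**Figure D3:**
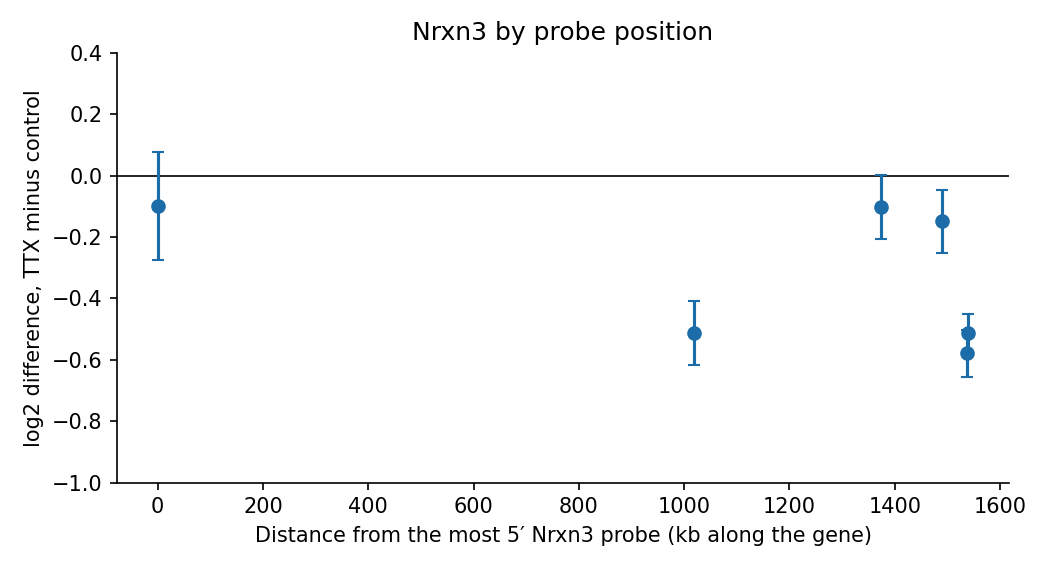
Log2 difference (TTX minus control) of the 6 Nrxn3 probes against distance in kb from the most 5′ probe, with bars of 1 spot SD for the signal quintile of the probe. The probes at 1018.7, 1538.1 and 1540.0 kb lie between -0.58 and -0.51, and the other 3 between -0.15 and -0.10.

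Nrxn2, the other neurexin, differed little. Its brighter probe (chr19:6533156-6533215, plus strand) had signals of 22648 on control and 24549 on TTX, a difference of 0.12 (spot SD 0.06). The probe at the stop codon had signals of 12078 and 13817, a difference of 0.19 (spot SD 0.06). Both were slightly higher on the TTX array with quantile normalization, but with scaling on the spike-in controls they were at -0.0089 and -0.0014, so no direction held for Nrxn2.

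Among the neuroligins, Nlgn3 gave the same direction at each of 3 probes. Its brightest probe (chrX:98518888-98518947, plus strand) had signals of 4678 on control and 5526 on TTX, a difference of 0.24 (spot SD 0.06). The second (chrX:98516599-98516658) had signals of 668 and 809, a difference of 0.28 (spot SD 0.08). The third (chrX:98515760-98515819) was dim, with signals of 69.4 and 75.9 and a difference of 0.13 (spot SD 0.18). All 3 were above 0 under each scaling tried, although scaling on the spike-in controls left 0.05 at the brightest. By the scanner software, the errors of these differences were 0.20, 0.20 and 0.24, close to the differences or above them.

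Nlgn2, the neuroligin of inhibitory synapses, was level: its single probe (chr11:69636641-69636700, minus strand) had signals of 29238 on control and 29096 on TTX, a difference of -0.01 (spot SD 0.06). Its sign depended on the processing, from -0.13 with spike-in scaling to 0.01 with normexp correction.

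Nlgn1, the neuroligin of excitatory synapses, had signals of 846 on control and 894 on TTX at its brighter probe (chr3:25330886-25330945, minus strand), a difference of 0.08 (spot SD 0.08), and -0.05 with spike-in scaling. Its other probe (chr3:25599157-25599216) is annotated to a cDNA clone and was among the dimmest, at 49.4 and 67.4. The difference there was 0.45 (spot SD 0.31), and 0.22 with normexp correction. The readings of Nlgn1 therefore differed by about the error of the dim probe.

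Over the 19 probes, 12 were above 0 and 7 below, 13 lay within 0.5 of 0, and the 3 past 2-fold were the probe of Nxph3 and both probes of Nxph4. The same shares over all measured probes are not given here, so these counts only describe the 19 probes. Base composition of the probes ran from 35.0% to 55.0% GC. The Nxph3 probe had 46.7%, both Nxph4 probes had 55.0%, and so did an Nrxn2 and an Nrxn3 probe with differences of 0.19 and -0.51.

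The other proteins of the complex were read from 5 lists of genes of the pathway. Of 15 neurexin ligands besides the neuroligins and neurexophilins, 13 were measured, with 1 at least 2-fold higher, 0 at least 2-fold lower and a median of -0.06. That gene was Cbln1, a secreted protein that links presynaptic neurexins to postsynaptic delta glutamate receptors. Its signals were 85.3 on control and 361 on TTX, a difference of 2.08 (spot SD 0.18) from 1 measured probe of 2, and 1.47 with normexp correction. The next largest differences were those of Clstn3, a calsyntenin of the postsynaptic membrane (-0.71), the C1q-like secreted protein C1ql2 (0.56), the synaptic adhesion protein Igsf21 (0.40, and 0.20 with spike-in scaling) and the cerebellin Cbln2 (-0.37, dim, and -0.12 with normexp). Cbln4 was well above background on the control array only and Adgrl2 on neither.

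Of 10 cytoplasmic partners of neurexins, all were measured, with 0 at least 2-fold higher, 2 at least 2-fold lower and a median of -0.12. Lin7a and Lin7b are PDZ proteins that join the scaffold kinase Cask. Lin7a had signals of 2714 on control and 927 on TTX (-1.55, spot SD 0.08) and Lin7b 6405 and 2618 (-1.29, spot SD 0.06). The value of Lin7a is from 1 measured probe of 2. The third family member, Lin7c, was dim and at -0.10, with its sign turned under 75th percentile scaling (0.07). The next were Apba3 (-0.27), the band 4.1 protein Epb41l1 (-0.23), Apba1 (0.17, and -0.03 with spike-in scaling) and Apba2 (-0.14). The 3 Apba genes encode the Mint adaptors.

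Of 10 cytoplasmic partners of neuroligins, all were measured and 0 passed 2-fold in either direction, with a median of -0.16. The largest difference was that of Gphn, which encodes gephyrin, the scaffold of inhibitory postsynapses. Its signals were 4201 on control and 2366 on TTX, a difference of -0.83 (spot SD 0.06), short of the size rule. Pick1, a PDZ protein, was at -0.56, with -0.22 at its other probe. The scaffold Dlg1 was at 0.31 with its 3 probes between -0.29 and 0.31, and the Golgi-associated PDZ protein Gopc at 0.28 (0.10 with spike-in scaling).

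Of 8 extracellular regulators, 6 were measured, with 1 at least 2-fold higher, 0 at least 2-fold lower and a median of 0.25, or 0.06 with spike-in scaling. Mdga1 encodes a membrane-anchored protein that binds neuroligins and blocks their contact with neurexins. Its signals were 5329 on control and 14921 on TTX, a difference of 1.49 (spot SD 0.06), with 1.44 at its other probe. Its relative Mdga2 had signals of 687 and 480 and a difference of -0.52, so the pair differed in direction. Thbs1, a thrombospondin secreted by astrocytes, was at 0.53, the glial matrix protein Sparcl1 at -0.36 and the protease Bace1 at 0.29 (0.089 with spike-in scaling). Thbs2 was well above background on the control array only and Mmp9 on neither.

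Of 10 splicing factors that act on neurexin transcripts or on neuronal exons in general, all were measured and 0 passed 2-fold, with a median of 0.12, or -0.03 with spike-in scaling. The largest differences were those of Nova1 (-0.84, dim, with -0.11 at its other probe and -0.47 with normexp), Rbfox3 (-0.81), Rbfox2 (0.69) and Ptbp1 (0.27). Rbfox3 had signals of 22158 and 12617, and Rbfox2 of 1808 and 2925, so these relatives differed in direction. Rbfox3 is also among the neuron markers below, so its value enters both lists. Outside the naming rule, and chosen after their values were seen, are the best known partners and the KH-domain factors that act on the splicing of neurexins. Cask was at 0.00 at its brightest probe (-0.16 with spike-in scaling), with its 4 probes between -0.27 and 0.57, the postsynaptic scaffold Dlg4 at -0.24, Khdrbs1 at 0.13 (0.48 at its other probe, and -0.05 with spike-in scaling at the brightest), Khdrbs2 at 0.27 and Khdrbs3 at -0.11.

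**Figure D4:**
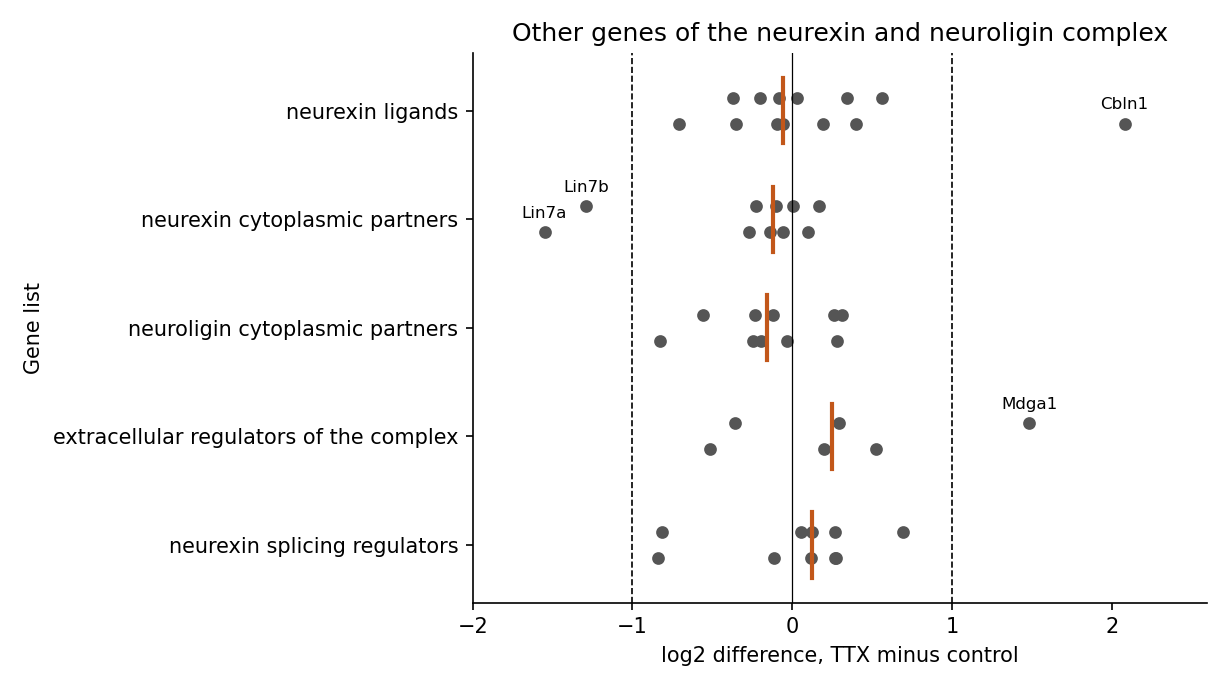
Log2 difference (TTX minus control) of each measured gene of the 5 lists, 1 point per gene at its brightest probe, with an orange bar at the median of the list and dashed lines at 2-fold. Cbln1 and Mdga1 lie above the upper line, Lin7a and Lin7b below the lower one, and the medians lie between -0.16 and 0.25.

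Cell type markers were read beside these results. Summed signals add probes that are not comparable with each other, so the brightest probes weigh most and a sum does not measure a class. All 10 neuron markers were measured, with a median of 0.18, 0 at least 2-fold higher and 1 lower, and summed signals of 198567 on control and 195260 on TTX. All 9 excitatory markers were measured, with a median of 0.59, 1 at least 2-fold higher and 1 lower, and summed signals of 45206 and 51158. All 12 inhibitory markers were measured, with a median of -0.11, 1 at least 2-fold higher and 1 lower, and summed signals of 88465 and 66636. Within these sums Npy gave 21915 on control and 7239 on TTX. Both neuron classes were thus present in both cultures. Of the inhibitory markers, the class that Nxph1 is known from, 8 were below 0 and 4 above. The largest differences were in Calb2 (2.27), Npy (-1.60) and Dlx1 (0.998), which do not share a direction. Vip (-0.979) was close to Dlx1 in size, and Gad1 (-0.70) and Slc32a1 (-0.33) were also lower on the TTX array. The rest of the list differed less, with Sst at -0.19, Dlx5 at -0.12, Gad2 at -0.11, Pvalb at -0.09, Dlx2 at 0.06 and Lhx6 at 0.09.

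Among glia, 9 of 11 astrocyte markers were measured, with a median of 0.24, 0 at least 2-fold higher and 1 lower, and summed signals of 52155 on control and 62481 on TTX. Nlgn3 is also known from glia. The largest differences among astrocyte markers were in the glutamate transporter Slc1a2 (-1.05), the intermediate filament Gfap (0.78) and Sox9 (0.56). Of 9 oligodendrocyte lineage markers 5 were measured (median 0.02, summed signals 1558 and 1782), and Olig2, Sox10 and Pdgfra were not well above background on either array. Microglia markers (8 of 10) had a median of 0.26 and summed signals of 19881 and 22038, of which Itgam, with 1 of its 3 probes measured, gave 18172 and 20323, with Cx3cr1 and P2ry12 not well above background on either array. Fibroblast markers (5 of 6) had a median of 0.16 and summed signals of 846 and 1021. Endothelial markers (3 of 6) had a median of -0.21 and summed signals of 2551 and 2166, of which Kdr gave 2445 and 2071 with its probes at -0.24 and 0.24, with Cdh5, Cldn5 and Tek not well above background on either array. The part of cell makeup in the differences of the 8 genes was not tested.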

How the data were processed

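Total RNA of 2 cultures was hybridized to Agilent 8x60K arrays, 1 array per group. The deposited scanner files give linear spot intensity after background subtraction by Feature Extraction (9.5.1.1 per the submitters' processing notes, 10.7.1.1 per the file headers). The deposited value table also holds linear intensity, and the 27398 measured probes gave a correlation of 0.9999 between its differences and those used here. Outlier spots were left out (131 on control, 170 on TTX). Signals were quantile normalized, the method named in the series' design text, put on a log2 scale and averaged per probe. Probes counted as measured when 0.5 or more of their spots passed the scanner's background call in each culture, and the brightest such probe stood for the gene. Of 55681 probes, 30847 were named through RefSeq symbols of GRCm38.p6 (27229 by first accession, 90 by another, 3528 by symbol), and 24834 had none. Probe coordinates are mm9.

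Without replicates no test was made. Spot SD came from 261 measured probes with 10 spots. Alternatives were 75th percentile, spike-in and no scaling, normexp (limma 3.58.1, offset 50), the deposited values, no or a stricter dim-probe filter, the mean over probes, outlier spots kept, row-block medians removed, and 1.5-fold and 3-fold rules. Spike-in scaling took 1 constant, 0.0556 on the log2 scale, off the TTX signals in place of quantile normalization. That constant was the median difference over only 7 spike-in probes. The steps were tested on simulated data. The 8 genes and all lists were chosen with earlier results of these data known. A gene of 1 list is not reported here and was left out of that list's values. Named were the 8 genes with every probe, and of each list the genes past 2-fold and up to 4 more with the largest differences. Of markers, up to 3 were named for classes in which 1 of the 8 genes is known. The inhibitory markers other than Calb2, Npy and Dlx1 were named outside this rule, after their values were seen.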

Additional observations from a re-analysis of the deposited data

How the results depend on the processing

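Nxph3 and Nxph4 were at least 2-fold higher, and 0 of the 8 genes at least 2-fold lower, under every alternative listed. Nxph3 was between 2.10 and 2.27 and Nxph4 between 1.56 and 2.06. A 3-fold rule on the values of the Results kept both, but Nxph4 with normexp correction (1.56) was just under 3-fold. Nrxn3 lay between -0.69 and -0.33. Nrxn2 at both probes, Nlgn1, Nlgn2 and the most 5′ probe of Nrxn3 crossed 0 under at least 1 alternative. Counts over all genes were 1062 higher and 1368 lower with no filter on dim probes, and 147 and 301 with normexp correction.

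Scaling on the spike-in controls gave a median of 0.021 for the 8 genes, -0.27 for neurexin cytoplasmic partners, 0.056 for extracellular regulators, -0.033 for splicing regulators, 0.025 for neuron markers, 0.44 for excitatory markers and -0.30 for inhibitory markers. Of 76 single gene and probe values, 31 moved under it by more than the spot SD of 0.15 and 12 changed sign. It also gave 2 inhibitory markers at least 2-fold lower. Endothelial markers had medians of -0.049 with 75th percentile scaling, -0.055 with no scaling, -0.0545 with no filter and 0.00 with the mean over probes. With no filter, 1 neurexin ligand and 1 oligodendrocyte marker were at least 2-fold lower and 1 fibroblast marker higher. With normexp 0 astrocyte markers were at least 2-fold lower. Excitatory markers at least 2-fold higher numbered 0 with 75th percentile, no or spike-in scaling, normexp or row-block medians removed, and 2 with the mean over probes. The causes were not tested.

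The slide could not be a block, since both arrays lay on it. Single spots limit dim probes, and 1 array per group limits all values. No paired analysis was possible because each group has 1 array.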

Other observations

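The genes next to Nxph3 and Nxph4 in the gene order of GRCm38.p6 were read after the values of both were seen. Ngfr, which encodes the p75 neurotrophin receptor and is the next gene after Nxph3, had signals of 881 on control and 133 on TTX, a log2 difference of -2.73 from 1 measured probe. The other genes around Nxph3 were within 0.5 of 0 at their brightest probe: the ubiquitin ligase adaptor Spop was at 0.07, the nucleotide sugar transporter Slc35b1 at -0.21 and prohibitin (Phb) at -0.20. Around Nxph4, Shmt2, a mitochondrial enzyme of serine metabolism, was at -0.41, the lipoprotein receptor Lrp1 at 0.45 and Ndufa4l2 at 0.53 from a dim probe, while Stat6 was not measured. None of these 7 measured neighbours was at least 2-fold higher, beside 2.09% of all measured genes. At that share, a count over 7 genes says little.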
